A study of Mus musculus with 6 samples.

Results

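Semaphorins and plexins are encoded in the mouse by 29 protein-coding genes of the GENCODE M21 annotation, 20 semaphorins of classes 3 to 7 and 9 plexins, chosen here by symbol alone. The deposited table of 24080 genes held 28 of them, 19 semaphorins and 9 plexins, and *Sema4a* was not analysed here. Their RNA was compared between 3 libraries of VEC-null cells and 3 of VEC-positive cells. VEC-null cells are endothelial cells (ECs) derived from mouse embryonic stem cells and without a working gene of vascular endothelial cadherin (VEC). VEC-positive cells are the same line after a retrovirus carried wild-type *VEC* into it, so the null alleles are shared by both groups. The sources used here give neither the promoter of the vector nor the number of clones.

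Semaphorins are guidance cues first known from growing axons, and in vessels they steer sprouts and loosen or brace the contacts of ECs with matrix and with each other. Class 3 members are secreted and mostly bind a neuropilin that holds a plexin, while members of classes 4 to 6 span the membrane and class 7 is held by a lipid anchor. Plexins are their receptors, and the inner part of a plexin carries a domain that switches off small GTPases of the R-Ras and Rap kind. Plexin-D1 is the plexin best known in ECs, where Sema3E binds it without a neuropilin.

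*Cdh5*, which encodes VEC, ran opposite to the labels, with 1334 to 1689 normalized counts in libraries labelled VEC-null and 739 to 794 in those labelled VEC-positive (difference of -0.96 in log2, adjusted p = 0.000182 from limma). Counts per gene cannot show whether reads come from the null allele or the vector, so every direction below follows the labels. A library held 6036155 to 14136376 reads, and a normalized count is a read count divided by the size factor of its library. Mitochondrial transcripts took 9.62% to 14.9% of reads in labelled VEC-null and 17.97% to 24.18% in labelled VEC-positive libraries. VEC-null 3 stood further from VEC-null 1 and 2 (chi-square per gene 50.52 and 48.61) than any other replicates from each other (6.57 to 18.42). All 9 endothelial markers were well detected, with a summed level of 48793 to 51974 in labelled VEC-null and 71319 to 73307 in labelled VEC-positive. Of other cell types, the summed level of 8 mural cell or fibroblast markers was 86.9 to 206.6 and 247 to 291 in the same order, and the 1 marker of these that passed, of 4 tested, was *Pdgfrb*, with group means of 1.10 and 105. The other tested markers of the list, *Pdgfra* (39.9 and 55.7), *Acta2* (19.4 and 8.59) and *Col1a2* (80.2 and 72.7), differed in direction without passing. Of the markers too low to be tested, *Col1a1* (2.96 and 18.3), *Des* (2.55 and 7.10) and *Dcn* (1.02 and 3.28) had higher means in labelled VEC-positive. *Rgs5* (4.52 and 2.21), also untested, had a lower one. Summed levels were 129 to 438 and 143 to 199 for 5 blood cell markers, most of it from *Itgam* (group means 293 and 133). *Itgam* did not pass (adjusted p = 0.269 from limma), with VEC-null 3 at 83.3, below every VEC-positive library. *Csf1r* (15.9 and 28.1) and *Cd68* (20.9 and 10.7) were low, and *Ptprc* and *Spi1* had group means between 0 and 1.30. For 5 neural markers the summed levels were 131 to 451 and 188 to 276, mostly from *Stmn2* (307 and 221). *Stmn2* did not pass either (adjusted p = 0.627 from limma), with VEC-null 3 at 119, below every VEC-positive library. Summed levels were 2853 to 3060 and 1951 to 2276 for 3 lymphatic endothelial markers and at most 12.9 for 3 markers of pluripotent stem cells. Most of the lymphatic sum was *Flt4* (2867 and 2057), which passed as lower (adjusted p = 0.00208 from limma). *Lyve1* (64.3 and 23.8) also passed as lower (0.00309), and *Prox1* (22.3 and 8.72) did not pass. The part of these markers in the results below was not tested. The study calls the libraries biological replicates, but the labels do not say whether they came from separate cultures, so p-values measure the spread between these libraries, and VEC cannot be told apart from other differences between the line and its reconstituted form. In bulk RNA, fewer cells of a type and less RNA per cell cannot be told apart either.

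Of the 28 genes, 20 were at 10 normalized counts or more in 3 or more libraries and were tested, 13 semaphorins and 7 plexins. Against labelled VEC-null, 8 were higher and 5 lower in labelled VEC-positive and 7 did not pass, by limma with Benjamini-Hochberg adjustment over all 14032 genes tested and a threshold of 0.05. Among all those genes, 37.3% passed in either direction, 20.9% as higher and 16.4% as lower. Of 13 tested semaphorins, 5 were higher and 4 lower, and of 7 tested plexins, 3 were higher and 1 lower. The median log2 fold change was 0.04 over the 20 genes and -0.01 over all genes tested. Libraries of the 2 groups did not overlap for 15 of the 20 genes, 9 higher and 6 lower, where 50% of all tested genes did not overlap. Scaling to equal totals shifted the median over all genes to -0.323, and with it 4 members were higher and 7 lower, where 11% of all genes tested were higher and 35.5% lower. With mitochondrial transcripts left out of the totals, the median was -0.157, and 6 members were higher and 6 lower. Of 14096 genes tested with that scaling, 2051 were higher and 3178 lower. Without VEC-positive 1 or without VEC-positive 3, 5 members were higher, where 1927 of 13635 and 2054 of 13618 genes tested were higher.

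**Figure D1:**
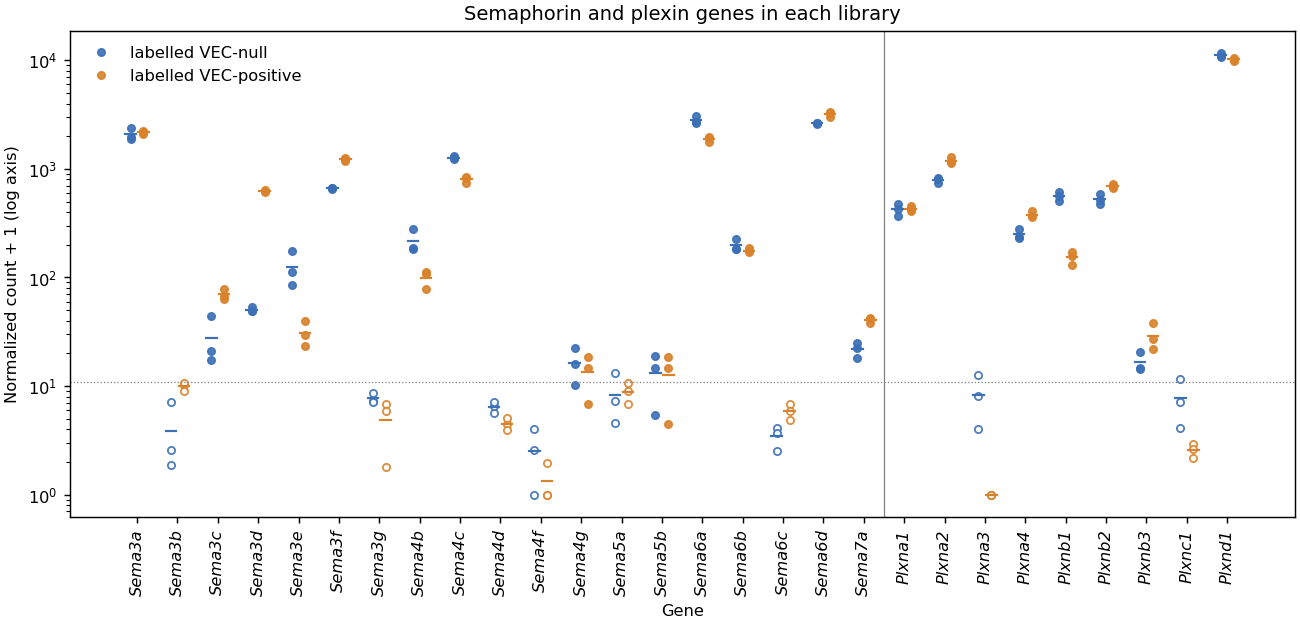
Normalized count plus 1 (log axis) of each of the 28 genes in each library labelled VEC-null (blue) and VEC-positive (orange), with short lines at group means; filled points are the 20 tested genes, open points those below the filter, and the dotted line marks a count of 10. *Sema3d* is the gene whose groups lie farthest apart among those tested, while those of *Sema3a* and *Plxna1* overlap.

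Among the 5 tested class 3 semaphorins, which are secreted, 3 were higher and 1 lower. Of all genes tested, 20.9% were higher and 16.4% lower. *Sema3d*, a cue that acts on endothelial and neural crest cells, had 52.0, 48.0 and 47.9 normalized counts in libraries 1, 2 and 3 of VEC-null and 635.7, 626.4 and 606.0 in libraries 1, 2 and 3 of VEC-positive. Its replicates differed little and the groups lay far apart, with a log2 fold change of 3.63 (SE, the standard error, 0.10 and adjusted p = 5.34e-07). The reads, scaled by the size factors of the libraries, gave a ratio of 12.7 (95% counting interval 10.8 to 15.1). *Sema3e*, the ligand of plexin-D1, had 84.2, 111.8 and 172.9 normalized counts in libraries 1, 2 and 3 of VEC-null and 38.5, 28.2 and 22.6 in libraries 1, 2 and 3 of VEC-positive. It fell by 1.98 in log2 units (SE 0.31 and adjusted p = 0.00151), with VEC-null 3 the highest library, and without that library it fell by 1.70. *Sema3f*, a ligand of neuropilin-2, was at 667.1, 646.5 and 666.7 in the VEC-null libraries and 1223.5, 1194.3 and 1252.4 in the VEC-positive ones. These levels did not overlap, and the log2 fold change was 0.89 (SE 0.067 and adjusted p = 4.18e-05).
*Sema3c*, which binds neuropilins and guides cells of the cardiac outflow tract, was low in all libraries. It had 19.9, 16.5 and 43.4 normalized counts in libraries 1, 2 and 3 of VEC-null and 66.5, 77.0 and 62.9 in libraries 1, 2 and 3 of VEC-positive, with VEC-null 3 well above the other libraries of its group. The log2 fold change was 1.46 (SE 0.35 and adjusted p = 0.0128), 1.86 without VEC-null 3, and the call was lost without VEC-positive 2 (adjusted p = 0.0546). *Sema3a*, the ligand of neuropilin-1 first known for collapsing growth cones, was at 2082 ± 269 (SD, n = 3) in labelled VEC-null and 2170 ± 57.0 (SD, n = 3) in labelled VEC-positive. Its groups overlapped and it did not pass (log2 fold change 0.07, 95% interval -0.16 to 0.29, adjusted p = 0.622), though leaving out VEC-null 3 made it pass as higher (0.17 in log2, adjusted p = 0.0446). *Sema3b* and *Sema3g* stayed below 10 in every library and were not tested. *Sema3b* had 7 reads in the VEC-null libraries together and 28 in the VEC-positive ones, a ratio of 3.91 (95% counting interval 1.67 to 10.6), and *Sema3g* had 20 and 11 (ratio 0.537, interval 0.233 to 1.18). These ratios are scaled by size factors too, and the intervals cover counting error only.

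*Sema3d* and *Sema3e*, the tested class 3 members with the largest rise and fall, lie in a row of 4 semaphorin genes on mouse chromosome 5, and their promoters are shown with that of *Plxnb1*, the tested plexin that changed most. The sequences are those of RefSeq on GRCm38.p6 (the assembly of mm10), plus strand, from 250 bases before the RefSeq start up to it or, for *Plxnb1*, to the base before the GENCODE gene. The genes run from 12383385 to 12588948 (*Sema3d*) and 14025276 to 14256689 (*Sema3e*) on chromosome 5 and from 109095389 to 109119917 (*Plxnb1*) on chromosome 9, and the stretches shown stand at chr5:12382916-12383165, chr5:14025026-14025275 and chr9:109095186-109095388. Capitals mark CG dinucleotides, the bases that CpG islands are rich in.
Sema3d: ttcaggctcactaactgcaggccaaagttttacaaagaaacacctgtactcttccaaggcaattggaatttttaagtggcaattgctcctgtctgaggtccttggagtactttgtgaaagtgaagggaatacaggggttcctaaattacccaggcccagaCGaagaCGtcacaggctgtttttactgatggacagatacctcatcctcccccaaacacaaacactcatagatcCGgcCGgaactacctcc
Sema3e: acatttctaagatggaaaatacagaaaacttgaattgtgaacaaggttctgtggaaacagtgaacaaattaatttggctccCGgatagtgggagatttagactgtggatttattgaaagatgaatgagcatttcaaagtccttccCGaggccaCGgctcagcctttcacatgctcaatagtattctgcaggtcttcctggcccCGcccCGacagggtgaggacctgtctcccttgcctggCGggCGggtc
Plxnb1: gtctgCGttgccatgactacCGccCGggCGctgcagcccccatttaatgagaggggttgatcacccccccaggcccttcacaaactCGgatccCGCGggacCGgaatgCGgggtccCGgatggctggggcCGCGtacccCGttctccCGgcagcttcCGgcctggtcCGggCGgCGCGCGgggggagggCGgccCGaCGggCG
The 250 bases before the start held 4 CG dinucleotides in *Sema3d*, 7 in *Sema3e* and 30 in *Plxnb1*, of which 24 are in the stretch shown. The median was 6 over 32851 RefSeq promoters and 15 over the 31 promoters of the 23 members that matched by symbol. Genes that were higher had both CG-rich and CG-poor promoters, with 39 in *Sema3c* and 4 in *Sema3d*. Windows were searched on both strands for GTAAACA, a core that FoxO factors bind, and for CTTTGAT, a core of Tcf factors, which do not overlap. FoxO1 and β-catenin with Tcf are the factors the study followed at other genes. None of the 31 member promoters held either motif, where 3.17% of all promoters held the FoxO core and 3.21% the Tcf core. This says only that these letters are not in these 250 bases.

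The 4 class 3 genes on chromosome 5 went different ways within 5.35 megabases, from 12383385 to 17730268 of mm10. In order along the chromosome, *Sema3d* was higher, *Sema3a* did not pass, *Sema3e* was lower and *Sema3c* was higher. Of 13 other protein-coding genes of the table in this interval, 3 were tested and 1 was higher, *Pclo*, which encodes a scaffold of synapses, with a log2 fold change of 2.87 (adjusted p = 6e-05 from limma; singled out with its value known). *Sema3f* and *Sema3b* lie within 0.11 megabases of each other on chromosome 9, and *Gnai2* between them, the 1 tested gene of 3 there, did not pass (adjusted p = 0.346).

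Of 3 tested class 4 semaphorins, which carry an immunoglobulin domain outside the cell, 2 were lower in labelled VEC-positive and 1 did not pass. Over all genes tested, 20.9% were higher and 16.4% lower. *Sema4c*, a ligand of plexin-B2, had 1305, 1231 and 1254 normalized counts in libraries 1, 2 and 3 of VEC-null and 816.5, 738.4 and 844.1 in libraries 1, 2 and 3 of VEC-positive, a fall of 0.66 in log2 units (SE 0.078 and adjusted p = 0.000387). *Sema4b* had 182.1, 184.3 and 280.2 in the VEC-null libraries and 112.0, 77.0 and 106.5 in the VEC-positive ones. The groups did not overlap although VEC-null 3 was high, and *Sema4b* fell by 1.11 (SE 0.22 and adjusted p = 0.0048), and without VEC-null 3 it fell by 0.91.
*Sema4g* was at 15.1 ± 6.05 (SD, n = 3) and 12.4 ± 5.94 (SD, n = 3) without passing, with a 95% interval from -1.43 to 0.79 on the log2 scale. *Sema4d*, the ligand of plexin-B1, and *Sema4f* were below the filter, with 17 and 4 reads over the VEC-null libraries and 11 and 1 over the VEC-positive ones. Of class 5, which bears thrombospondin repeats, *Sema5a*, a ligand of plexin-B3, was below the filter with 20 and 25 reads (ratio 1.22, 95% counting interval 0.651 to 2.32). *Sema5b* overlapped between groups at 12.1 ± 6.99 (SD, n = 3) and 11.6 ± 7.26 (SD, n = 3) without passing (95% interval -1.67 to 1.45 in log2, adjusted p = 0.917).

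The class 6 genes *Sema6a* and *Sema6d*, both well expressed transmembrane ligands of A plexins, moved in opposite directions, though *Sema6d* turned to -0.028 in log2 with equal totals. *Sema6a*, a ligand of plexins A2 and A4, had 2633, 2703 and 3073 normalized counts in libraries 1, 2 and 3 of VEC-null and 1968, 1787 and 1907 in libraries 1, 2 and 3 of VEC-positive. No library of either group came within the range of the other, and it fell by 0.57 (SE 0.084 and adjusted p = 0.0012). *Sema6d*, a ligand of plexin-A1 in the developing heart, had 2647, 2569 and 2646 in the VEC-null libraries and 3246, 3011 and 3316 in the VEC-positive ones. Its log2 fold change was 0.28 (SE 0.069 and adjusted p = 0.0141), and with equal totals the adjusted p was 0.786. The call was also lost with equal totals that leave out mitochondrial transcripts (0.14 in log2, adjusted p = 0.191), in limma without its trend (0.0549) and without VEC-positive 1 (0.0689) or 3 (0.0645). *Sema6b* overlapped between groups at 196 ± 24.7 (SD, n = 3) and 176 ± 7.54 (SD, n = 3) without passing (95% interval -0.44 to 0.13), though with equal totals it passed as lower (-0.46 in log2, adjusted p = 0.0163), while *Sema6c* was below the filter with 8 and 15 reads.
*Sema7a*, the lipid-anchored member, which binds β1 integrin and plexin-C1, had 21.4, 17.3 and 23.9 normalized counts in libraries 1, 2 and 3 of VEC-null and 40.8, 37.0 and 41.2 in libraries 1, 2 and 3 of VEC-positive. The groups did not overlap and the log2 fold change was 0.90 (SE 0.23 and adjusted p = 0.0175). The call was lost without VEC-null 2 (adjusted p = 0.0558), without VEC-positive 1, 2 or 3 (0.0534 to 0.0701), with equal totals (0.067), with the replicate block (0.0506) and under DESeq2 on reads (0.0696).

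Among the 7 tested plexins, *Plxnb1* changed most. *Plxnb1*, which encodes a receptor of Sema4D, had 564.6, 605.6 and 502.7 normalized counts in libraries 1, 2 and 3 of VEC-null and 130.6, 155.9 and 170.3 in libraries 1, 2 and 3 of VEC-positive. It fell by 1.87 in log2 units (SE 0.13 and adjusted p = 2.44e-05), and its reads, scaled by the size factors of the libraries, were 3.61 times fewer. Its relative *Plxnb2*, a receptor of Sema4C, had 469.7, 512.7 and 592.3 in the VEC-null libraries and 702.2, 667.3 and 720.6 in the VEC-positive ones, the opposite direction. The log2 fold change of *Plxnb2* was 0.41 (SE 0.10 and adjusted p = 0.0135), and 0.10 with equal totals (adjusted p = 0.428). With equal totals that leave out mitochondrial transcripts it was 0.27 (adjusted p = 0.0983). The call was also lost without VEC-positive 1 (0.0559) or 3 (0.0566). *Plxnb3* was low, at 15.6 ± 3.43 (SD, n = 3) and 28.2 ± 8.34 (SD, n = 3), which did not pass (adjusted p = 0.0818). It did pass without VEC-null 3 (0.0416) and with libraries weighted by their spread in limma (0.0191).
Of 3 tested A plexins, which class 3 semaphorins reach through neuropilins and class 6 semaphorins bind directly, 2 were higher and 1 did not pass. Among all genes tested, 20.9% were higher. *Plxna2* had 826.2, 740.3 and 801.5 normalized counts in libraries 1, 2 and 3 of VEC-null and 1171, 1134 and 1274 in libraries 1, 2 and 3 of VEC-positive, a log2 fold change of 0.60 (SE 0.081 and adjusted p = 0.000792). *Plxna4* had 237.2, 230.0 and 278.4 in the VEC-null libraries and 409.4, 367.2 and 360.7 in the VEC-positive ones. Its groups did not overlap, and its log2 fold change was 0.61 (SE 0.11 and adjusted p = 0.00326), or 0.30 with equal totals (adjusted p = 0.0576). An antisense gene, *Plxna4os1*, overlaps *Plxna4*, and the sources used here do not give the strand setting of the counting. It was at 15.9 ± 4.18 (SD, n = 3) and 14.5 ± 4.35 (SD, n = 3) normalized counts (adjusted p = 0.794 from limma).
*Plxna1* overlapped at 424 ± 53.9 (SD, n = 3) and 428 ± 21.2 (SD, n = 3), a difference that did not pass (95% interval of the log2 fold change -0.23 to 0.27). *Plxnd1*, the endothelial receptor of Sema3E, had 11004, 10824 and 11603 normalized counts in libraries 1, 2 and 3 of VEC-null and 10172, 9961 and 10417 in libraries 1, 2 and 3 of VEC-positive. The groups did not overlap, but the distance was small, with a log2 fold change of -0.13 (95% interval -0.31 to 0.05, adjusted p = 0.223). With equal totals it passed as lower (log2 fold change -0.44, adjusted p = 0.00325). It also did so with equal totals that leave out mitochondrial transcripts (-0.28 in log2, adjusted p = 0.0344 from limma). Below the filter, *Plxna3* had 24 reads over VEC-null libraries and 0 in the VEC-positive ones (ratio 0, 95% counting interval 0 to 0.162). It was 8.19-fold lower if 3 reads, set as a floor, stood for the whole VEC-positive group. With no filter on low values it passed as lower (adjusted p = 0.00425 from limma). *Plxnc1*, a receptor of Sema7A, had 18 and 5 reads (ratio 0.271, 95% counting interval 0.0788 to 0.758).

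**Figure D2:**
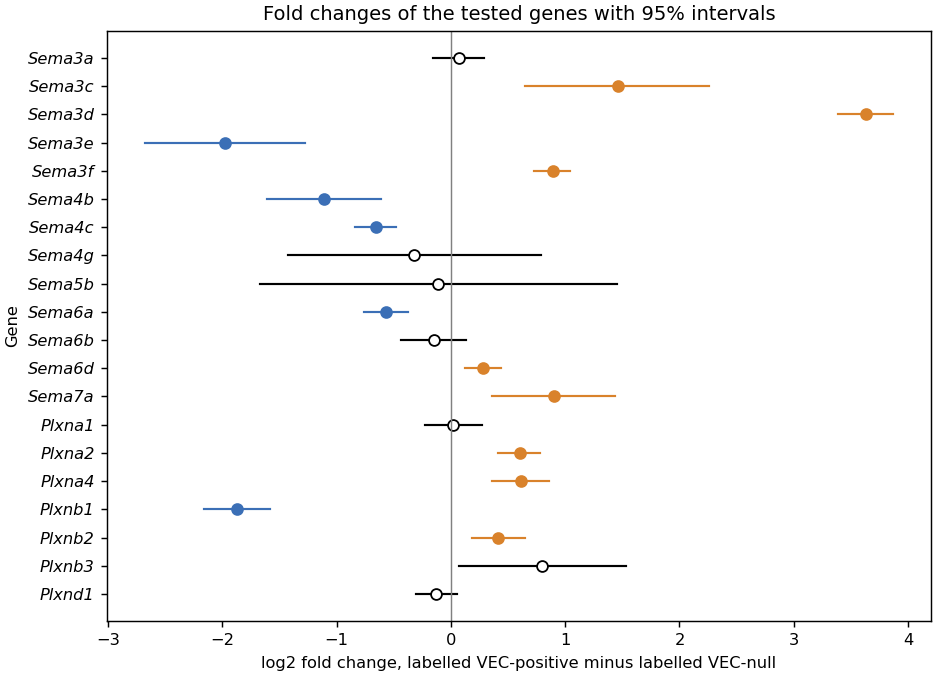
Log2 fold change of labelled VEC-positive minus labelled VEC-null (horizontal axis) of the 20 tested genes, with bars for 95% intervals; orange points were higher, blue points lower and open points did not pass. *Sema3d* stands at 3.63 and *Sema3e* and *Plxnb1* near -2, while *Sema6d* lies close to 0 and falls to -0.028 with libraries scaled to equal totals.

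Levels were compared between genes as normalized counts per 1000 bases of merged exons, and as shares of the summed level of a family in the same library, which do not depend on the scaling of libraries. Genes differ in which transcripts are made, so these are approximate. *Plxnd1* was the dominant plexin, at 1526 ± 55.8 (SD, n = 3) per 1000 bases in labelled VEC-null and 1395 ± 31.2 (SD, n = 3) in labelled VEC-positive, against 68.0 ± 8.05 (SD, n = 3) and 90.2 ± 3.51 (SD, n = 3) for *Plxnb2*, the next. It took 86.2% to 86.5% of the plexin level in the VEC-null libraries and 84.4% to 84.8% in the VEC-positive ones.
Below it the order changed. In labelled VEC-null, *Plxnb2*, *Plxnb1*, *Plxna1* and *Plxna2* followed each other with overlapping ranges between neighbours, and *Plxna4* came after them. In labelled VEC-positive the order was *Plxnb2*, *Plxna2*, *Plxna1*, *Plxna4* and *Plxnb1*, with no overlap between neighbours. The share of *Plxnb1* went from between 2.84% and 3.68% to between 0.825% and 1.05%, and that of *Plxnb2* from between 3.49% and 4.16% to between 5.37% and 5.53%. The B plexins as a whole held 6.99% to 7.67% and then 6.64% to 6.77%.
The summed semaphorin level per 1000 bases was 1197 to 1313 in the VEC-null libraries and 1206 to 1273 in the VEC-positive ones, so the groups overlapped, but its makeup differed. The secreted class 3 genes held 23.4% to 25.3% of it in labelled VEC-null and 37.5% to 39.8% in labelled VEC-positive. Class 4 went the other way, from between 24.8% and 26.1% to between 14.6% and 16.1%, and class 6 held 49.3% to 49.9% and 44.4% to 45.3%.
In labelled VEC-null the order of single genes was *Sema6a*, *Sema4c*, *Sema6d*, *Sema3a* and *Sema3f*, at 319, 275, 248, 150 and 127 per 1000 bases. In labelled VEC-positive it was *Sema6d*, *Sema3f*, *Sema6a*, *Sema4c* and *Sema3a*, at 302, 235, 215, 174 and 156, with no overlap between neighbours in either group. The share of *Sema3d* went from between 0.424% and 0.496% to between 5.54% and 6.04%, which made it the sixth semaphorin by level, while *Sema3e* went from between 0.742% and 1.42% to between 0.191% and 0.326%. With 3 libraries a group, the exact permutation test of a share cannot go below 0.10, so no p is given for these shares.

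**Figure D3:**
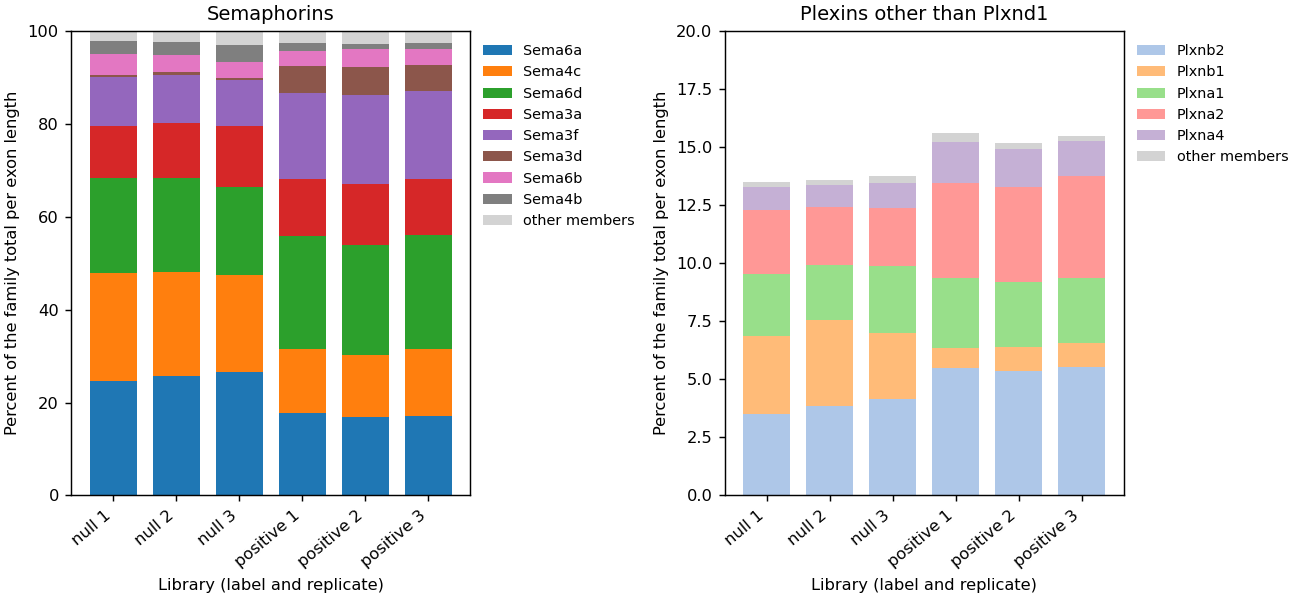
Share of the summed level per exon length (percent, vertical axis) taken by single semaphorins (left) and by plexins other than *Plxnd1* (right, axis to 20%) in each library; *Plxnd1* takes the rest of the plexin total. *Sema3f* and *Sema3d* take a larger part and *Sema6a* and *Sema4c* a smaller part of the bars labelled VEC-positive, and *Plxnb1* narrows from between 2.84% and 3.68% to between 0.825% and 1.05%.

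Of 62 genes listed as partners of semaphorins and plexins, 59 were in the table and 56 could be tested, and 23 of these were higher and 11 lower while 22 did not pass. Their median log2 fold change was 0.26, where it was -0.01 over all genes tested. Over all genes tested 20.9% were higher and 16.4% lower. With libraries scaled to equal totals 11 partners were higher and 20 lower, against 11% and 35.5% of all genes. Leaving mitochondrial transcripts out of the totals made 17 higher and 15 lower, against 2051 and 3178 of 14096 genes tested.
Of 9 tested co-receptors and other receptors, 3 were higher, 1 lower and 5 did not pass, and with equal totals 2 were higher and 3 lower. *Nrp2*, the neuropilin of Sema3F, had 2806, 2563 and 2558 normalized counts in libraries 1, 2 and 3 of VEC-null and 2053, 2021 and 2134 in libraries 1, 2 and 3 of VEC-positive, a difference of -0.35 in log2 (adjusted p = 0.00576), while *Sema3f* itself was higher. *Nrp1*, the neuropilin of Sema3A, was at 2779 ± 292 (SD, n = 3) and 2419 ± 104 (SD, n = 3) without passing (adjusted p = 0.126), though it passed as lower with equal totals (adjusted p = 0.00182). *Kdr*, a VEGF receptor that forms complexes with neuropilins and plexins, had a log2 fold change of 0.57 and *Hspg2*, the proteoglycan perlecan, one of 0.68. The other gene that rose, *L1cam*, singled out with its value known, averaged 44.6 ± 9.18 (SD, n = 3) in labelled VEC-positive. Its adjusted p of 0.0323 from limma rose to 0.0753 without VEC-null 2, 0.111 without VEC-positive 1 and 0.113 without VEC-positive 3. It was 0.0794 with equal totals and 0.0527 with equal totals that leave out mitochondrial transcripts. *Itgb1*, the integrin subunit that Sema7A binds, did not pass (adjusted p = 0.774).
Of 7 tested proteases that cut semaphorins or activate such enzymes, 1 was higher and 2 lower. Without VEC-null 3 each direction held 3, where 3795 of 13709 genes tested were higher and 3148 lower. *Mmp14*, a membrane protease that sheds Sema4D, was lower, with 3078 ± 256 (SD, n = 3) normalized counts against 1885 ± 98.9 (SD, n = 3) and a difference of -0.70 in log2 (adjusted p = 0.000408), and *Adam10*, another sheddase, had one of 0.59. *Pcsk6*, a low gene singled out with its value known, was also lower, at -1.47. *Furin*, which processes class 3 semaphorins, was at 740 ± 91.8 (SD, n = 3) and 761 ± 17.3 (SD, n = 3) without passing.

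Of 15 GTPases that plexins act on or are steered by, all tested, 9 rose, 2 fell and 4 did not pass, where 20.9% of all genes were higher and 16.4% lower. With equal totals 5 were higher and 2 lower, where 11% of all genes were higher and 35.5% lower. *Rras*, *Rras2*, *Rac1* and *Arf6* then lost their calls (adjusted p 0.475, 0.116, 0.268 and 0.172 from limma). They are singled out for that loss. *Mras*, a substrate of the plexin domain that switches off GTPases, had 180.5, 181.9 and 178.2 normalized counts in libraries 1, 2 and 3 of VEC-null and 1071, 1137 and 1076 in libraries 1, 2 and 3 of VEC-positive. No library of one group came near the other, with a log2 fold change of 2.60 (SE 0.077 and adjusted p = 5.34e-07). *Rhob* had a log2 fold change of 1.21, and *Rap1b*, another substrate of plexins, had 2398 ± 407 (SD, n = 3) and 4749 ± 290 (SD, n = 3) normalized counts. *Rap2a* fell by 0.85 in log2 units, and *Rnd3*, a low gene singled out with its value known, differed by -1.27. *Cdc42* had a log2 fold change of 0.33 and did not pass (adjusted p = 0.0567). It did pass without VEC-null 3 (0.0004), with libraries weighted by their spread in limma (0.000933) and under DESeq2 on reads (0.0448). With a filter of 50 it passed just under the threshold. *Rnd1*, which binds plexins, did not pass at 30.8 ± 6.68 (SD, n = 3) and 41.0 ± 4.74 (SD, n = 3).
Of 10 exchange factors, GTPase-activating proteins and adaptors, 3 were higher and 3 lower. With equal totals 1 was higher and 6 lower, where 11% of all genes were higher and 35.5% lower. *Arhgef12*, a RhoA exchange factor held by the tail of B plexins, had 3578 ± 259 (SD, n = 3) and 5448 ± 218 (SD, n = 3) normalized counts (log2 fold change 0.61, adjusted p = 0.000687). *Arhgef11*, which binds the same tail, was at 375 ± 19.0 (SD, n = 3) against 340 ± 30.2 (SD, n = 3) without passing (adjusted p = 0.298), though it passed as lower with equal totals (0.00927). *Gipc1*, an adaptor of plexin-D1, differed by -0.75 in log2 (adjusted p = 0.00232) and *Farp1*, an exchange factor of A plexin signalling, by -0.55. *Rapgef1*, which activates Rap1, had a log2 fold change of 0.41 (0.10 with equal totals, adjusted p = 0.356). *Sh3bp1* and *Ranbp9*, singled out with their values known, made up the counts with 1.05 and -0.38. *Sh3bp1* lost its call without VEC-null 1 or 2 or any VEC-positive library (adjusted p 0.053 to 0.116), with equal totals (0.0773), the replicate block (0.0627) and DESeq2 (0.0525). *Ranbp9* lost it without VEC-null 1 or any VEC-positive library (0.0509 to 0.115), with the replicate block (0.0794) and in limma without its trend (0.0789).
Of 15 tested cytoplasmic effectors, 7 were higher, 3 lower and 5 did not pass. With equal totals 2 were higher and 7 lower, where 11% of all genes were higher and 35.5% lower. That scaling ended the calls of *Mical2*, *Dpysl2*, *Dpysl3*, *Fer* and *Gsk3b* (adjusted p 0.756, 0.861, 0.0939, 0.061 and 0.0856), which are named here for that loss. *Pak1*, a kinase downstream of Rac and Cdc42, had 234.1, 233.9 and 297.9 normalized counts in libraries 1, 2 and 3 of VEC-null and 75.8, 56.5 and 70.2 in libraries 1, 2 and 3 of VEC-positive, and fell by 1.90 in log2 units (SE 0.16 and adjusted p = 7.84e-05). *Limk1*, a kinase of cofilin, had a log2 fold change of 0.98, and *Cfl1*, cofilin itself, did not pass (adjusted p = 0.348). *Crmp1*, of the collapsin response mediators that relay Sema3A, had a log2 fold change of -0.96. *Mical3* and *Mical1*, of a family of enzymes that oxidize actin, differed in direction at 0.75 and -0.74; *Mical1* was singled out with its value known.

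**Figure D4:**
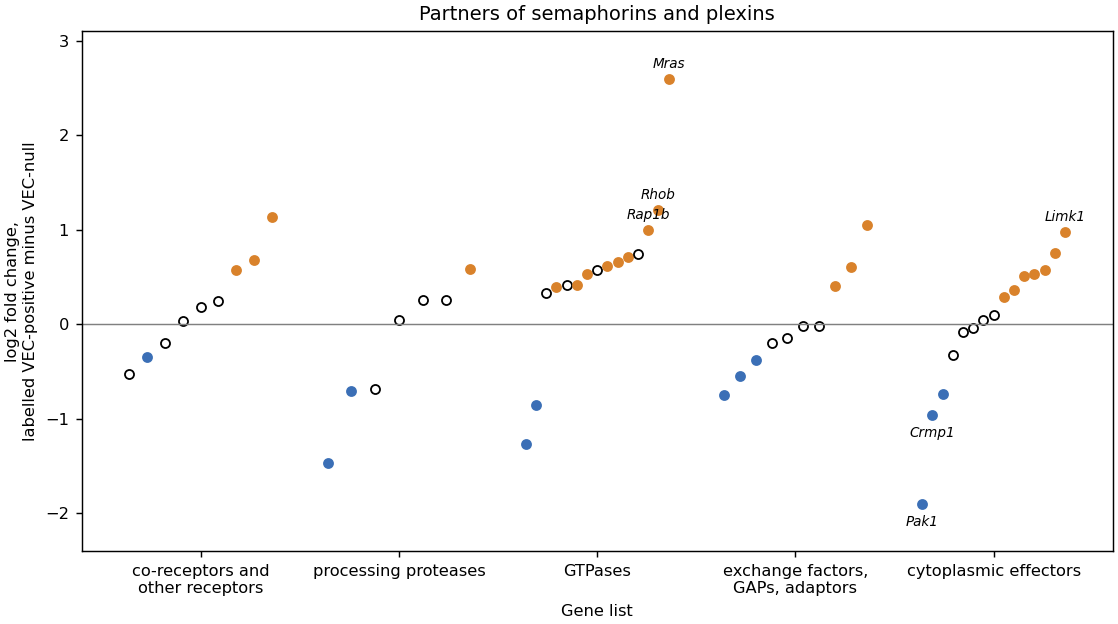
Log2 fold change of labelled VEC-positive minus labelled VEC-null (vertical axis) of the 56 tested partner genes in 5 lists, sorted within each list; orange points were higher, blue points lower and open points did not pass, and names are given to genes with a mean of at least 50 and a large change. *Mras* at 2.60 and *Pak1* at -1.90 lie outermost. With libraries scaled to equal totals 11 were higher and 20 lower, where 11% of all genes were higher and 35.5% lower.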

How the data were processed

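RNA of 3 VEC-null and 3 VEC-positive libraries, grouped by title, was sequenced with a stranded total RNA kit. The processing notes of the submitters name Trim Galore, TopHat2 2.1.1, DESeq2 1.14 and mm10; the counting program is not named in any source used here. The signal values deposited by the authors are gene counts that each library's own size factor had scaled. In all libraries each value is a whole multiple of 1 step, within 0.01 of a read, so whole reads were recovered for 100% of values. Symbols were found for 23908 of 24080 genes in GENCODE M21 (GRCm38, the assembly of mm10), which also gave coordinates and merged exon lengths.

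Genes at 10 or more in 3 or more libraries were compared as log2(value + 1) in limma 3.58.1 under R 4.3.3, with its trend of variance on mean, two-sided, with Benjamini-Hochberg adjustment and a threshold of 0.05. Fold changes on this scale understate those of low genes. Alternatives were 2 pseudocounts, 2 filters, 3 scalings, 2 models of the spread, a replicate block, count tests on the recovered reads (edgeR 4.0.16, DESeq2 1.42.0) and dropping each library in turn. All tools were tested on simulated counts. Members and lists were chosen with earlier results of these data known. Every member is accounted for, and of each partner list the 4 or fewer past the threshold that changed most at a mean of 50 or more, and up to 2 that did not pass, are named. Promoters came from RefSeq. Ratios of reads were scaled by the size factors of the libraries. Counting intervals and floors treat reads as independent molecules.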

Additional observations from a re-analysis of the deposited data

How the results depend on the processing

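Of 13 members that passed, 8 passed in the same direction in all 18 alternatives (*Sema3d*, *Sema3e*, *Sema3f*, *Sema4b*, *Sema4c*, *Sema6a*, *Plxna2* and *Plxnb1*), and 5 lost the call in at least 1 (*Sema3c*, *Sema6d*, *Sema7a*, *Plxna4* and *Plxnb2*). With equal totals 4 members were higher, and 11 partners were higher and 20 lower, where 11% of all genes were higher and 35.5% lower. Leaving mitochondrial transcripts out of those totals made 6 members higher and 6 lower, and 17 partners higher and 15 lower. Of 14096 genes tested with that scaling, 2051 were higher and 3178 lower. Leaving out 1 library gave 5 (without VEC-positive 1 or 3) to 10 (without VEC-null 3) members higher and 5 lower each time. Counts over all genes moved too. Without VEC-positive 1, 1927 of 13635 genes tested were higher and 1572 lower. Without VEC-positive 3, 2054 of 13618 were higher and 1659 lower, and without VEC-null 3, 3795 of 13709 were higher and 3148 lower. With the replicate number as a replicate block, 7 members were higher and 5 lower, and only *Sema7a* of the members lost its call (adjusted p = 0.0506 from limma). Same-numbered libraries did not deviate together (correlations 0.076, -0.333 and -0.295), so they were not taken as pairs. edgeR on reads made 8 higher and 5 lower, and DESeq2 7 and 5. Of 14032 genes tested, edgeR made 2817 higher and 2506 lower and DESeq2 2568 and 2301, and with the replicate block limma made 2400 and 1744. The sign turned for *Sema6d* with equal totals (-0.028) and for genes that did not pass: *Plxna1* with equal totals (-0.29), without mitochondrial transcripts in the totals (-0.13), with TMM (-0.00077), edgeR (-0.0068) and DESeq2 (-0.0035), and -0.07 to 0.11 without 1 library (-0.019 without VEC-positive 1); *Sema3a* with equal totals (-0.24) and without mitochondrial transcripts in them (-0.08); *Sema5b*, -0.65 to 0.52 without 1 library (0.07 without VEC-null 1 and 0.26 without VEC-null 2); and *Sema4g*, -0.62 to 0.10 without 1 library (0.10 without VEC-positive 2). The cause was not tested. With no filter, 6 members were lower, *Plxna3* being added (adjusted p = 0.00425), and the other 7 members below the filter did not pass (0.0823 to 0.838). Group totals of those 8 were 0 to 28 reads.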
